A study of Sus scrofa with 16 samples.

Results

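The genes described here encode proteins of the tight junction, the seal between neighboring epithelial cells. The set holds CLDN1, CLDN2, CLDN3, CLDN4, CLDN7 and CLDN15 (claudins), OCLN (occludin), TJP1 (zonula occludens 1) and F11R (junctional adhesion molecule A). Members were found on the array by gene name or by a bracketed symbol in the probe description. This gave 11 of the 43603 probes and 7 of the 9 genes, where 6294 genes of the array had a symbol, while CLDN1 and TJP1 had no probe under these names. A further 4 probes carry ZO1, the older name of TJP1, and 1 carries LOC396566, described on the array as claudin 1-like and listed by RefSeq as a gene other than CLDN1. These 5 probes are described beside the members and were not counted with them.

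Claudins span the membrane and set which ions and how much water can pass between cells. CLDN2 and CLDN15 are known to form pores for small cations and CLDN2 also for water, whereas CLDN3, CLDN4 and CLDN7 are mostly regarded as sealing claudins. Occludin and junctional adhesion molecule A are membrane proteins of the same contact, and zonula occludens 1 is the scaffold that ties them to actin. In the colon the junction separates the luminal contents from the mucosa. In the liver it closes the bile canaliculi between hepatocytes and also joins bile duct cells and endothelium.

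The arrays measured RNA of colonic mucosa and liver from Duroc × Landrace × Large White barrows, slaughtered at 170 days of age. The pigs were fed from day 70 of age for 100 days on a corn and soybean diet that held either purified corn starch (CS) or raw potato starch (RPS, a resistant starch), at 230 g per kg of feed and from 120 days of age at 280 g per kg. There were 4 groups of 4 arrays, named colon CS, colon RPS, liver CS and liver RPS, and each array held 1 sample labeled in 1 color. Signals are given as log2 values, in which 1 unit is a doubling. Diets were compared within a tissue after quantile normalization of its 8 arrays, and tissues were compared after normalization of all 16 arrays, so the same array has slightly different values in the 2 comparisons. Levels of different probes are not comparable with each other and were not compared.

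Every group was hybridized on a slide of its own and scanned once, so the slide and the diet cannot be told apart in either tissue. The tissues shared no slide either, so tissue and slide differences cannot be told apart in the comparisons between tissues. The median raw signal was 56.3 to 70.8 on the colon CS arrays and 34.2 to 42.5 on the colon RPS arrays, and between 30.6 and 37.9 in both liver groups. Between 61.1% and 72.2% of probes were well above background. At an adjusted p under 0.05 and a fold change above 1.5, all 14 hepatocyte markers were higher in the liver and 10 of 12 epithelial markers higher in the colon. Of the hepatocyte markers, 5 were above background on each of the 8 colonic arrays and 4 on none (CYP2E1, FGA, FGG and TTR), and of the epithelial markers 7 were well above background on all 8 liver arrays and 4 on none (CDX2, FABP2, KRT20 and SLC26A3).

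Each probe is a 60-base oligonucleotide. The first 30 bases are shown for the member that differed between the diets in the colon and for the member with the largest difference between the tissues, with the base of the transcript where the probe begins.

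CLDN15, probe A_72_P356028, base 888: tgggaaaaacgcttacgtataggaggcctg
CLDN7, probe A_72_P300854, base 613: ttttataacccgttggtccccacaaacgtg

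Several genes were read by more than 1 probe. The OCLN probes that begin at bases 2387 and 2404 share 43 bases apart from 1 inserted base, so that they are not separate measurements of different parts of the transcript. The capital marks the inserted base in the stretch that the pair has in common.

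OCLN, probe A_72_P651558: ccttttcatatttcagctactacgatagtg
OCLN, probe A_72_P510955: ccttttcatatttcagctactacAgatagt

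All 11 member probes were measured well above background by each of the 8 colonic arrays. In the liver this held for 10 of them, and the CLDN2 probe A_72_P014631 was well above background on 5 of 8 arrays.

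In the colonic mucosa, CLDN15 was higher with the RPS diet and no other member passed the thresholds. The CLDN15 signals with the CS diet were 7.25, 6.86, 7.00 and 7.12 in replicates 1 to 4, and with the RPS diet 7.93, 8.13, 8.12 and 8.28. The groups did not overlap, and every RPS array lay above every CS array. The difference was 1.06 ± 0.12 (log2, SE, n = 4 per diet), a 2.08-fold higher signal with a 95% interval of 0.77 to 1.35 on the log2 scale. Its unadjusted limma p was 4.441e-05 and its adjusted p over all probes 0.139, and p = 0.0286 was obtained by exact permutation of the 8 arrays (two-sided), the lowest value that groups of 4 can reach. A probe was called different between diets when its unadjusted p was under 0.05 and its fold change above 1.5, the thresholds that the methods name. By this rule 1 of 11 member probes was called, against 2.94% of all probes. No probe of the array had an adjusted p under 0.05 in the colon. Groups that did not overlap were found at 1 of 11 member probes and at 6.52% of all probes.

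The other 10 member probes gave RPS minus CS differences between 0.05 and 0.53, and each had overlapping groups. The sealing claudins gave 0.34 ± 0.67 for CLDN3, 0.05 ± 0.64 for CLDN4 and 0.27 ± 0.60 for CLDN7 (log2, SE). Their 95% intervals ran from -1.22 to 1.90, -1.45 to 1.55 and -1.14 to 1.69, so that differences of more than 2-fold in either direction lie inside them. The CLDN2 probes gave 0.53 ± 0.46 and 0.12 ± 0.44. The OCLN probes gave 0.31, 0.37 and 0.26, and the F11R probes 0.34 and 0.49. All 11 values were above 0, as were 52.3% of all probes, and their median was 0.34 against 0.01 over all probes. This shared direction depended on the arrays included, as described next. It was lost without CS replicate 3 alone. With RPS replicate 2 left out as well, 9 of the 11 values were above 0.

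**Figure D1:**
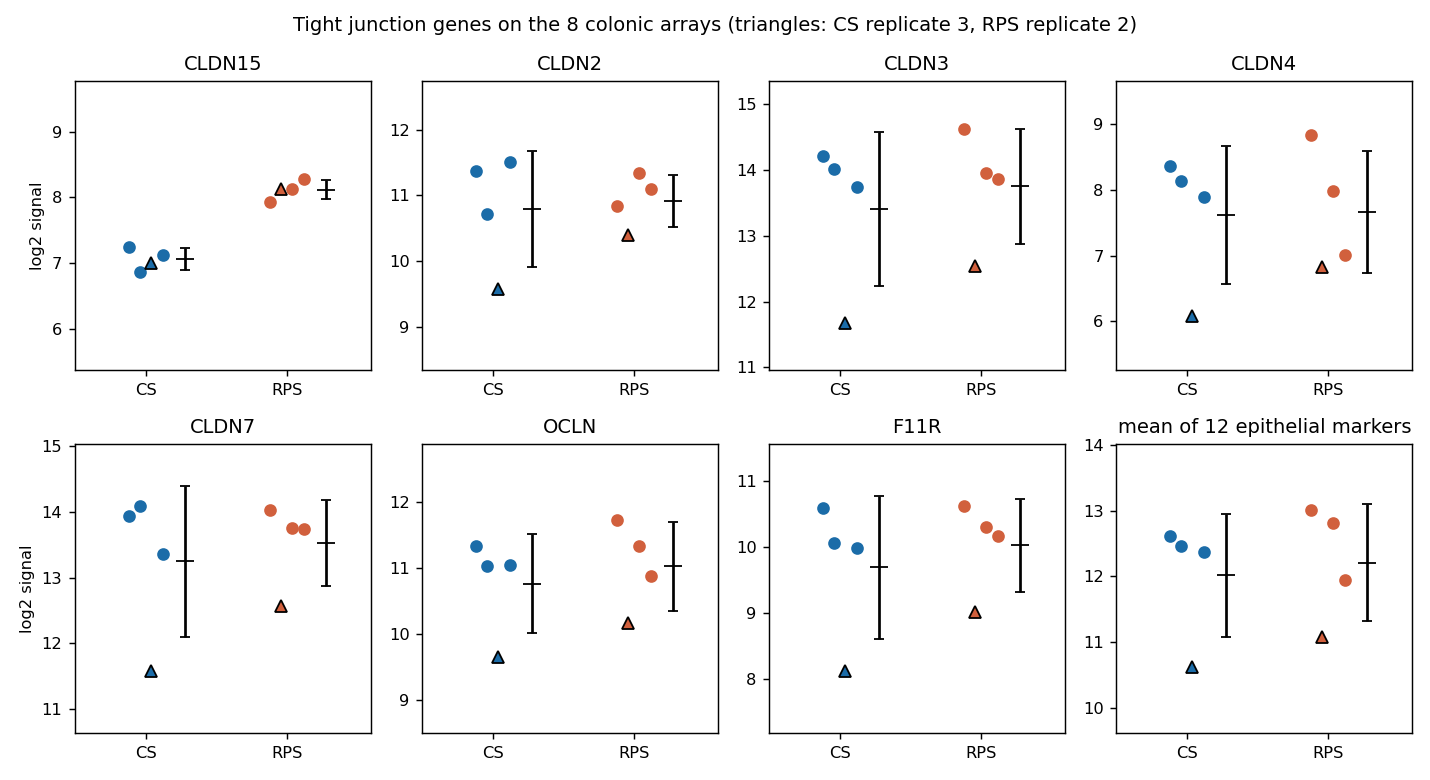
Log2 signal of the 7 member genes (1 probe each, the brightest) and the mean of 12 epithelial markers on the 8 colonic arrays, normalized together. Points are arrays, triangles are CS replicate 3 and RPS replicate 2, and bars are the mean ± SD of 4 arrays. Each panel spans 4.4 log2 units. CLDN15 separates the diets with 7.25 as the highest CS value and 7.93 as the lowest RPS value, and the triangles are the lowest points of their group in every other panel.

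At all 10 member probes other than that of CLDN15, CS replicate 3 was the lowest of the 8 colonic arrays and RPS replicate 2 the lowest of the RPS arrays. RPS replicate 2 lay close to another array at CLDN4 (6.83, with 7.02 in RPS replicate 4) and at the CLDN2 probe A_72_P014631 (4.80, with 4.83 in CS replicate 2). At CLDN3, the CS arrays gave 14.21, 14.01, 11.68 and 13.75 in replicates 1 to 4, and the RPS arrays 14.63, 12.54, 13.96 and 13.86. At CLDN7, they gave 13.95, 14.09, 11.59 and 13.37 with CS, and 14.03, 12.56, 13.76 and 13.73 with RPS. At the OCLN probe A_72_P651558, they gave 11.33, 11.03, 9.65 and 11.05 with CS, and 11.74, 10.16, 11.33 and 10.88 with RPS. The same 2 arrays were the low ones in each of these genes, and the remaining arrays of both diets overlapped.

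Over the 10 member probes other than CLDN15, CS replicate 3 lay 1.49 to 2.35 log2 units under the mean of the other 3 CS arrays, with a median difference of -2.09. RPS replicate 2 lay 0.55 to 1.61 under the mean of the other 3 RPS arrays, with a median difference of -1.28. Among the 26511 probes that every colonic array measured well above background, the same differences had a median of 0.04 and -0.03, with 5th percentiles of -1.69 and -1.39. CLDN15 differed from the mean of the other 3 arrays by -0.07 in CS replicate 3 and by 0.02 in RPS replicate 2. The 4 ZO1 probes were lower by 0.30 to 0.73 in CS replicate 3 and by 0.31 to 0.83 in RPS replicate 2.

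Markers of cell types moved with these arrays. Of 12 epithelial markers, 9 were lower by more than 1 log2 unit in CS replicate 3 and 11 in RPS replicate 2, with median differences of -1.87 and -1.32. The log2 of their summed signal was 17.88 in CS replicate 3 and 19.44 to 19.79 in the other CS arrays, and 18.48 in RPS replicate 2 and 19.52 to 19.89 in the other RPS arrays. Of 8 leukocyte markers, 5 were higher by more than 1 log2 unit in each of the 2 arrays, with MS4A1, a B cell surface protein, higher by 3.26 and 5.19, whereas LYZ, the enzyme lysozyme, gave -1.41 in RPS replicate 2. The log2 of the summed leukocyte signal was 16.12 in CS replicate 3 and 15.53 to 16.02 in the other CS arrays, but 15.63 in RPS replicate 2 and 15.73 to 17.47 in the other RPS arrays. Their part in the values of the junction genes was not tested. The colonic RNA came from scraped mucosa, a mixture of cell types, so fewer cells of a type and less RNA per cell cannot be told apart.

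Without CS replicate 3, 9 of the 11 member probes had an RPS minus CS difference under 0, down to -0.46 at CLDN4, and CLDN15 gave 1.04. Without both arrays, CLDN15 gave 1.04 ± 0.15 (log2, SE, 3 arrays per diet), with a 95% interval of 0.65 to 1.43. Its unadjusted limma p was 0.000827 and its adjusted p 0.238. CLDN15 was again the 1 member called, where 5.47% of all probes were. The other 10 member probes then lay between -0.18 and 0.27. Of all 11 values, 9 were above 0, with a median of 0.17. The intervals narrowed, for example to -0.47 to 0.81 at CLDN3 and to -0.53 to 0.61 at CLDN7. The arrays left out were the lowest of their diet at these 10 probes, so narrower intervals follow from that choice.

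**Figure D2:**
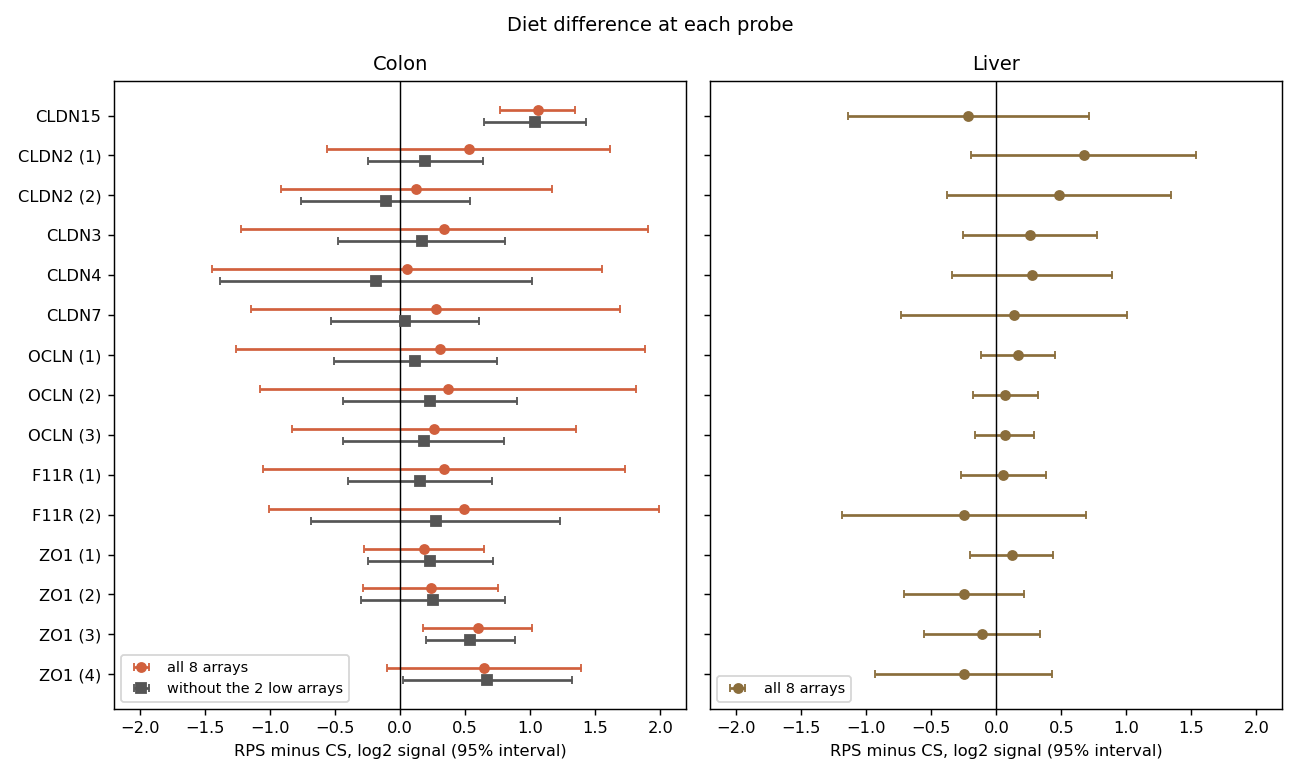
RPS minus CS difference at each member probe and ZO1 probe in the colon (left) and the liver (right), in log2 units with 95% intervals. Probes of 1 gene are numbered in the order of their identifiers, and squares give the colon without CS replicate 3 and RPS replicate 2 (the 2 low arrays). CLDN15 in the colon lies near 1 with and without these arrays (1.06 and 1.04), and the intervals of the other members include 0.

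Of the epithelial markers, 0 of 12 were called between the diets, and their median RPS minus CS difference was 0.19. Of the fibroblast and matrix markers (5), COL1A2 and COL6A3 were called lower with RPS, by -0.72 and -0.90. The log2 of the summed signal of these 5 genes was 14.22 to 14.97 with CS and 13.72 to 14.25 with RPS. Of the 4 smooth muscle markers, 0 were called. The log2 of their summed signal did not overlap between the diets (14.80 to 15.01 with CS, 14.27 to 14.69 with RPS). The mean of their log2 signals did overlap (11.75 to 12.30 with CS, 11.48 to 11.92 with RPS). The part of either list in the CLDN15 difference was not tested. The 3 genes whose colonic signal followed that of CLDN15 most closely after subtraction of each diet mean were ARV1 (r = 0.976), BOLA1 (r = 0.962) and MAN2C1 (r = 0.958), over 8 arrays that share their slides by diet and among 10532 named probes searched. Their own RPS minus CS differences were 0.06, 0.23 and 0.02.

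Of the ZO1 probes, A_72_P593139 was higher with RPS in the colon. Its signals were 8.09, 7.89, 7.42 and 7.92 with CS, and 8.71, 8.20, 8.48 and 8.32 with RPS. The groups did not overlap, by a gap of 0.11 between the highest CS array and the lowest RPS array. The difference was 0.60 ± 0.18 (log2, SE), a 1.51-fold change with an unadjusted limma p of 0.0118 and an adjusted p of 0.727. The call was lost without CS replicate 3 (0.46), RPS replicate 1 (0.50) or RPS replicate 3 (0.58), without both low arrays (0.54), and after scaling to the 75th percentile (0.58) or normexp background correction (0.41). The other ZO1 probes gave 0.19, 0.24 and 0.65 and were not called. A_72_P645222, the probe that gave 0.65, was called without CS replicate 1 (0.80), RPS replicate 2 (0.85) or both low arrays (0.67). It shares 59 bases, apart from 1 inserted base, with A_72_P170361, the probe that gave 0.19. These 2 probes are therefore not separate measurements of different parts of the transcript.

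In the liver, no member passed the thresholds between the diets: 0 of 11 probes were called, where 3.56% of all probes were, none had groups that did not overlap (4.45% of all probes) and none had an adjusted p under 0.05 (0.00229% of all probes). The lowest unadjusted limma p of a member in the liver was 0.110, at the CLDN2 probe A_72_P014631. At CLDN15, the liver signals were 10.10, 10.28, 8.82 and 9.82 with CS, and 9.31, 8.93, 10.30 and 9.61 with RPS. Both groups covered the same range, and the difference was -0.22 ± 0.40 (log2, SE, 95% interval -1.14 to 0.71). The differences of the other members ran from -0.25 at the F11R probe A_72_P238977 to 0.67 at the CLDN2 probe A_72_P014631, which was well above background on 2 CS and 3 RPS arrays. The OCLN probes gave 0.17, 0.07 and 0.06 in the liver and the F11R probe A_72_P049411 gave 0.05, with intervals that excluded changes above 1.5-fold in either direction (-0.12 to 0.45 at A_72_P292669). The 4 ZO1 probes lay between -0.25 and 0.12.

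The diet difference of CLDN15 was larger in the colon than in the liver by an unadjusted p, and not after adjustment over all probes. With all 16 arrays in 1 fit, the RPS minus CS difference in the colon exceeded that in the liver by 1.30 ± 0.42 (log2, SE, 95% interval 0.39 to 2.21, unadjusted limma p of 0.00859, adjusted p = 0.799). This was the 1 member probe of 11 with an unadjusted p under 0.05, where 4.72% of all probes had one. It was 1.28 without the 2 low colonic arrays. The ZO1 probe A_72_P593139 gave 0.72 ± 0.27 (unadjusted limma p of 0.0192, adjusted p = 0.920).

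**Figure D3:**
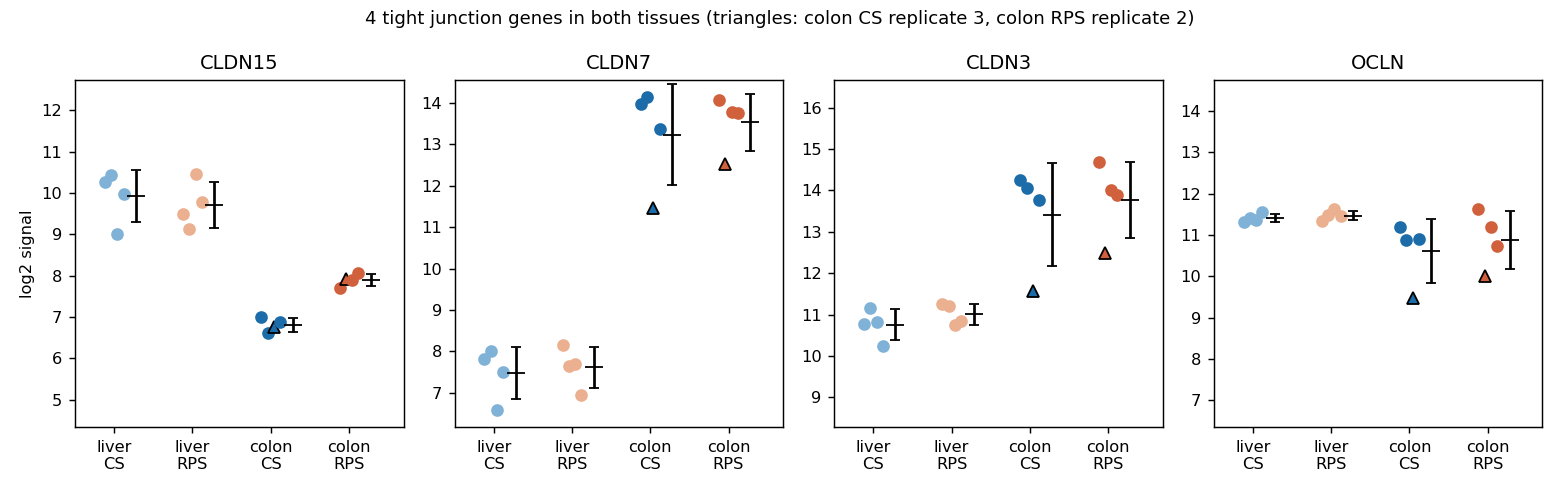
Log2 signal of CLDN15, CLDN7, CLDN3 and OCLN (probe A_72_P651558) in the 4 groups, normalized over all 16 arrays. Points are arrays, triangles are colon CS replicate 3 and colon RPS replicate 2, bars are the mean ± SD of 4 arrays, and every panel spans 8.4 log2 units. CLDN15 is highest in the liver (9.01 to 10.45) and lowest in colon CS (6.62 to 7.01), whereas CLDN7 and CLDN3 are higher in every colonic array than in any liver array.

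Between the tissues, CLDN7 and CLDN3 were higher in the colon, CLDN15 was higher in the liver, and CLDN2 and OCLN differed less. A probe was called different between tissues at an adjusted p under 0.05 and a fold change above 1.5. By this rule 8 of 11 member probes were called, 4 higher and 4 lower in the colon, against 42.2% of all probes (23.4% higher and 18.7% lower). Calls were more common, 16472 of 30011, among probes well above background on every array of some group. The 8 include more than 1 probe of OCLN and of CLDN2. With probes averaged by gene, 5 member genes were called, where 3340 of 5910 genes were. Groups that did not overlap were found at 3 of 11 member probes, CLDN7, CLDN3 and CLDN15, and at 26.8% of all probes.

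CLDN7 had the largest difference. On the colonic arrays its signal was at least 11.46, with a mean of 13.39 ± 0.94 (SD, n = 8), and on the liver arrays at most 8.15, with a mean of 7.54 ± 0.53. Colon minus liver was 5.84 ± 0.38 (log2, SE), a 57.3-fold higher signal in the colon with an adjusted limma p of 1.101e-08. It was 5.76 within the CS diet and 5.92 within the RPS diet, and 6.36 without the 2 low colonic arrays. CLDN3 was 6.54-fold higher in the colon, with 11.57 to 14.70 there and 10.25 to 11.25 in the liver (difference 2.71 ± 0.38, adjusted p = 3.102e-05). The difference of CLDN3 was 3.27, or 9.63-fold, without the 2 low arrays. CLDN4, which lies in the same functional class, was not called: its colonic signal was 5.82 to 8.64 and its liver signal 7.19 to 8.45, with a difference of -0.62 ± 0.36 (adjusted p = 0.171).

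The pore-forming claudins went in opposite directions. The CLDN15 signal in the liver was 10.26, 10.44, 9.01 and 9.99 with CS, and 9.49, 9.12, 10.45 and 9.78 with RPS. In the colon it was 7.01, 6.62, 6.76 and 6.88 with CS, and 7.71, 7.92, 7.91 and 8.07 with RPS. The groups lay in the order colon CS, colon RPS and then both liver groups, which overlapped each other. Colon minus liver was -2.46 ± 0.21 (log2, SE), a 5.50-fold higher signal in the liver with an adjusted limma p of 2.139e-07, and it was -3.11 within CS and -1.81 within RPS. CLDN2 was higher in the colon, by 0.92 ± 0.31 at A_72_P014631 (adjusted p = 0.0209) and by 0.84 ± 0.30 at A_72_P290634 (adjusted p = 0.0294), with overlapping groups. At A_72_P014631, which was well above background on 5 of 8 liver arrays, normexp background correction gave 0.21 and no call. At A_72_P290634 the call was lost without liver CS replicate 3 (0.69), liver RPS replicate 4 (0.74), colon CS replicate 1 (0.74), colon CS replicate 4 (0.72), colon RPS replicate 3 (0.77) or colon RPS replicate 4 (0.81), and when each tissue was normalized alone (0.63).

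OCLN was lower in the colon at each of its 3 probes, by -1.16 ± 0.36 at A_72_P292669 (adjusted p = 0.0137), -0.94 ± 0.33 at A_72_P510955 (adjusted p = 0.0263) and -0.69 ± 0.25 at A_72_P651558 (adjusted p = 0.0330). The liver arrays were tightly grouped, with SDs of 0.17, 0.13 and 0.11 over 8 arrays, and the colonic arrays spread, with SDs of 1.00, 0.92 and 0.70. Part of the size of these differences came with the 2 low colonic arrays: without them the differences were -0.66, -0.49 and -0.35, and only that at A_72_P292669 was called. At A_72_P651558 the call was also lost without liver CS replicate 2 (-0.68), liver CS replicate 4 (-0.66), liver RPS replicate 2 (-0.68), liver RPS replicate 3 (-0.66), colon CS replicate 3 (-0.50), colon RPS replicate 2 (-0.54) or colon RPS replicate 4 (-0.66).

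F11R was not called between the tissues, with 0.24 ± 0.32 at A_72_P049411 and -0.12 ± 0.39 at A_72_P238977. Without the 2 low arrays, A_72_P049411 gave 0.69 (adjusted p = 0.000635) and was called higher in the colon, and A_72_P238977 gave 0.32 and was not. These 2 arrays were the lowest of their diet in the colon at the member probes other than CLDN15. A higher colon minus liver value at those probes therefore follows from leaving them out, and the added call is no separate evidence of a tissue difference. In all, 7 of 11 member probes were called without these arrays, where 41.7% of all probes were. Of the ZO1 probes, none was called over all 16 arrays, with differences between -0.01 and 0.40. A_72_P645222, which was well above background on 4 of 8 liver arrays, gave 0.59 without the 2 low arrays and was then called higher in the colon. Within 1 diet, 3 of 11 member probes were called with CS and 3 of 11 with RPS, CLDN7, CLDN3 and CLDN15 in each case, where 37.2% of all probes were called within either diet. With CS, colon and liver arrays of equal number deviated together, and 5 member probes were called when the 8 CS arrays were fitted alone with that number as a block, the CLDN2 probes (0.99 ± 0.22, adjusted p = 0.0253, and 1.01 ± 0.20, adjusted p = 0.0176) being added. The labels do not state this pairing. The block was chosen from these same data, so the added calls depend on that choice. The count with CS was also 5 without colon CS replicate 1, colon CS replicate 3 or colon RPS replicate 2 and 7 without both low arrays, and that with RPS was 5 without colon CS replicate 3 and 6 without both.

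**Figure D4:**
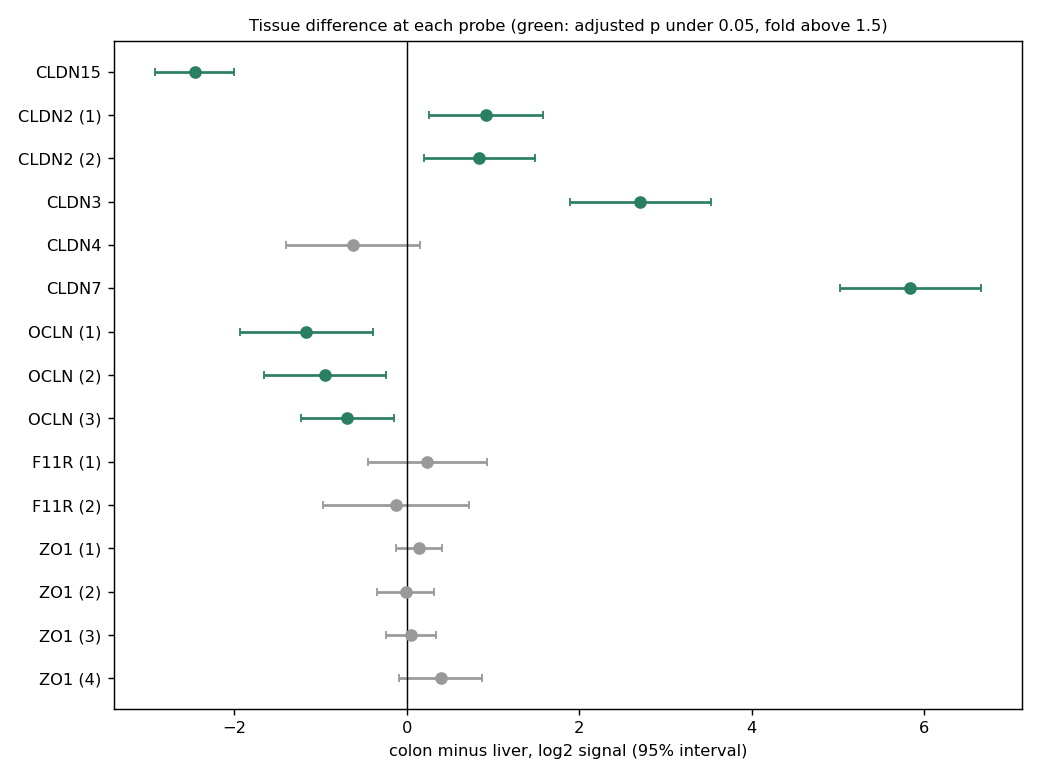
Colon minus liver difference at each member probe and ZO1 probe, in log2 units with 95% intervals, over 8 colonic and 8 liver arrays. Green points passed an adjusted p under 0.05 and a fold change above 1.5, gray points did not. CLDN7 (5.84) and CLDN3 (2.71) lie on the side of the colon, and CLDN15 (-2.46) and the 3 OCLN probes on the side of the liver.

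LOC396566, the claudin 1-like gene, was bright in the liver and not well above background on any colonic array. Its liver signal was 11.20 to 12.44, with a mean of 11.72 ± 0.46 (SD, n = 8). Against the lowest signal that counts as well above background on the colonic arrays, it was at least 515.5-fold higher in the liver. The measured means, 11.72 and 0.91, differed with a limma adjusted p = 3.761e-16, and after normexp background correction the measured difference of colon minus liver was -5.46 on the log2 scale. It was not called between the diets in the liver (-0.38 ± 0.31, log2, SE).

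Other genes of the junction showed how common such differences were around the members. None of the probes for 15 further claudins (21 probes), other tight junction membrane proteins (3 probes), plaque and polarity proteins (8 probes) or adherens junction and desmosome proteins (18 probes) was called between the diets in the colon. The median colonic differences of these lists were 0.08, 0.30, -0.25 and 0.07, against 0.01 over all probes. In the liver, CLDN23 was called higher with RPS (0.64) at a probe that was well above background on 1 of 8 liver arrays, and CDH1, the adhesion protein E-cadherin, was called lower at 1 of its 2 probes (-0.80 ± 0.21, unadjusted limma p of 0.00606, adjusted p = 0.442).

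Between the tissues, 2 of the 21 probes of the further claudins were called higher and 8 lower in the colon, where 23.4% and 18.7% of all probes were. Of the 8 probes for plaque and polarity proteins 4 were higher and 0 lower, and of the 18 for adherens junction and desmosome proteins 5 were higher and 3 lower. The other membrane proteins had 1 probe lower, JAM3. Toward the colon, the genes with the highest fitted differences were CLDN23 (3.27 ± 0.45), CLDN8 (2.13 ± 0.67) and JUP, the desmosomal plaque protein plakoglobin (1.85 ± 0.37). CLDN23 and CLDN8 were well above background on 1 of 8 liver arrays each, so that their differences and their order are uncertain, whereas all 16 arrays measured JUP. The other CLDN8 probe, A_72_P236327, which all 16 arrays measured above background, gave -0.21 ± 0.68 (adjusted p = 0.820). Toward the liver, the fitted values named CLDN14, CLDN5 and NECTIN1. CLDN14 had a mean of 10.69 ± 0.05 in liver CS and 10.49 ± 0.46 in liver RPS (SD, n = 4), and was well above background on 1 of 8 colonic arrays. CLDN5, the claudin of endothelium, was lower in the colon by -2.03 ± 0.22 (adjusted p = 2.531e-06), and is itself 1 of the 6 endothelial markers. Of these, 4 were called lower in the colon, CDH5 by -2.50, TEK by -2.26 and ENG by -1.53 beside CLDN5, while VWF was called higher (1.72) and PECAM1 was not called (-0.56). The NECTIN1 probe A_72_P077841 was not well above background on any colonic array and was so on 1 of 8 liver arrays. The size of its difference is therefore uncertain. The NECTIN1 probe A_72_P444843 was not well above background on any array. The NECTIN1 probe A_72_P469125, which all 16 arrays measured above background, was called lower in the colon (-0.98 ± 0.23, 1.97-fold). That value lies under the 2.37-fold of CLDN9 (A_72_P441129), the 2.28-fold of CLDN12 (A_72_P440991) and the 2.21-fold of JAM3, also measured on all 16 arrays. The place of NECTIN1 among the 3 genes named toward the liver therefore does not hold.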

How the data were processed

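RNA of colonic mucosa and liver (4 samples per diet and tissue) was hybridized to 16 one-color Agilent porcine arrays, and the labels do not state that equal replicate numbers mark 1 pig. Per the file headers, the authors' Feature Extraction software (version 10.7 in the submitters' processing notes) wrote spot intensity values after background subtraction, without normalization between arrays. A second table, of log2 values that the authors describe as quantile normalized, served as an alternative. Genome build and probe design annotation are not given in the sources used here.

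Spots marked as controls were dropped and spots marked as outliers treated as missing. Signals were then log2 transformed and quantile normalized, and replicate spots of 1 probe were averaged. All 43603 probes were fitted with limma 3.58.1 (lmFit and eBayes, R 4.3.3) and p-values adjusted by Benjamini-Hochberg over all of them. Single values were also tested by exact permutation. The number of arrays limits the precision. The fit was tested on simulated data. A symbol was found for 13210 probes through the files and the RefSeq table.

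All 9 members were reported at every probe, with each array's values where a probe was called between diets or had a leading tissue difference. Of other junction genes, those called between diets and the 3 largest tissue differences in each direction were named. The results of 1 list of junction genes are not reported here. Members and lists were chosen with earlier results of these data known, including the study's own list of changed probes, which holds that of CLDN15.

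Deviations of arrays with equal replicate numbers correlated between -0.515 and 0.542 for the diets in the colon, -0.153 and 0.102 in the liver, 0.160 and 0.334 between the tissues with CS, where each array correlated best with its own number, and -0.0767 and 0.0728 between the tissues with RPS. The numbers were therefore taken as pairs only between the tissues with CS, a hint from the data that the labels do not state. Alternatives were scaling to the 75th percentile, another set of arrays for the normalization, normexp (offset 50), the authors' log2 values, retention of outlier spots, a filter on probes well above background, an intensity trend, the methods' t-test, all arrays in 1 fit, the slide or the replicate number as a block, probes averaged by gene, each array left out, and, chosen after seeing the data, 2 low colonic arrays left out together and the CS arrays fitted alone with and without the block. The study's methods describe the 4 arrays of a group as biological replicates, from pigs slaughtered 1 per replicate. Figures were drawn with matplotlib 3.10.9.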

Additional observations from a re-analysis of the deposited data

Results flagged for a closer look

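In 3 of 60 groups of 4 arrays (15 probes, 4 groups each), the outermost array lay apart from the others by more than Dixon's 95% critical value, and chance gives about 1 in 20 groups. At the OCLN probe A_72_P292669, colon CS replicate 3 gave 6.27 where the other CS arrays gave 8.51 to 8.82, a gap of 0.879 of the group's range. At the OCLN probe A_72_P510955, the same array gave 8.53 where the others gave 10.46 to 10.80, a gap of 0.847 of the range. At the F11R probe A_72_P238977, liver CS replicate 2 gave 6.77 where the other liver CS arrays gave 5.12 to 5.35, a gap of 0.864 of the range.

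The diet difference of CLDN15 was 1.3 log2 units larger in the colon than in the liver, by a test of that difference itself (unadjusted limma p of 0.00859, adjusted p = 0.799). The diet difference of the ZO1 probe A_72_P593139 was 0.718 larger in the colon (unadjusted limma p of 0.0192, adjusted p = 0.920).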

How the results depend on the processing

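The counts over both diets changed little. CLDN15 was the 1 member called between the diets in the colon under every alternative run, with differences of 0.76 to 1.12, and adjusted p-values from 0.0698 (the methods' t-test) to 0.999 (replicate block). No member was called in the liver, 1 interaction was found throughout, and 6 to 8 member probes were called between the tissues. With the replicate number as a block, the counts were 1 in the colon, 0 in the liver, 8 between the tissues, 3 within either diet and 1 for the interaction. Within CS, the 3 called became 6 after scaling to the 75th percentile, 6 with each tissue normalized alone, 7 without both low arrays, 5 with the CS arrays fitted alone with the replicate number as a block (3 without it), and 3 to 5 over the fits that left out 1 array. Within RPS, the 3 called became 6 without both low arrays and 3 to 5 over the fits that left out 1 array.

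Single values near 0 changed sign. Over the fits that left out 1 array each, colonic diet differences ran from -0.28 to 0.36 (CLDN2, A_72_P290634), -0.24 to 0.74 (CLDN3), -0.46 to 0.33 (CLDN4), -0.28 to 0.59 (CLDN7), -0.28 to 0.70, -0.15 to 0.75 and -0.11 to 0.55 (OCLN), and -0.19 to 0.68 and -0.049 to 0.86 (F11R). In the liver they ran from -0.17 to 0.36 (CLDN7), -0.0012 to 0.12 (OCLN, A_72_P510955), and -0.032 to 0.13 and -0.43 to 0.14 (F11R). Colon minus liver ran from -0.31 to 0.15 (F11R, A_72_P238977), -0.11 to 0.048 (ZO1, A_72_P231682) and -0.013 to 0.12 (ZO1, A_72_P593139). Without both low colonic arrays the colonic diet difference was -0.11 at CLDN2 A_72_P290634 and -0.18 at CLDN4, and colon minus liver was 0.32 at F11R A_72_P238977 and 0.10 at ZO1 A_72_P231682, where scaling to the 75th percentile gave 0.0942. With each tissue normalized alone, colon minus liver at ZO1 A_72_P593139 was -0.050. The cause was not tested. Signal over background limits the CLDN2 probe A_72_P014631 and the ZO1 probe A_72_P645222 in the liver.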
